A study of Mus musculus with 8 samples.

Results

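The 31 genes described here encode the apolipoproteins of the liver and the proteins that lipidate, export, remodel and take up lipoproteins. They were taken by gene symbol from a count table of 19642 genes, and all 31 were in that table and passed the filter on low counts. Livers came from 4 WT and 4 N-LKO mice fed a chow diet (CD), and 1 RNA library was sequenced per mouse. N-LKO mice lack NgBR, the product of Nus1, in cells with an active albumin-Cre transgene, through a loxP-flanked allele. All mice were on the C57BL6 background, and the labels call the controls WT without saying whether they carried the floxed allele or Cre. The sample titles and the legend for the study's chow livers both state 8 weeks of CD, whereas the treatment entries of the labels state 16 weeks. The age of the mice is not given in the labels. Each of the 8 samples is a separately labelled mouse of its group. The comparison asks whether loss of NgBR in hepatocytes changes the mRNA of the machinery that makes VLDL, the particle in which the liver secretes TAG.

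VLDL is built in the endoplasmic reticulum (ER) of hepatocytes. APOB is made as a very large protein and is lipidated while it is being translated, with the microsomal triglyceride transfer protein (MTTP) as the lipid donor, and the particle then leaves the ER in COPII carriers enlarged for bulky cargo. Small exchangeable apolipoproteins (APOA, APOC and APOE families) move between VLDL, HDL and other particles in plasma, where lipases, lipid transfer proteins and hepatic receptors remodel and clear them. NgBR is a subunit of cis-prenyltransferase, which makes the dolichol chain that carries the sugar tree for N-glycosylation in the ER.

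The deposited values were estimated read counts per gene, and the total per mouse ranged from 14688404 to 18585412. Levels are given as CPM, that is counts scaled to a common library size, after TMM scaling. Nus1 lay between 82.0 and 90.5 CPM in WT livers and between 33.3 and 38.7 CPM in N-LKO livers, a fall to 41.7% of the WT mean (adjusted p = 3.06e-05, edgeR). Over 14214 genes tested, edgeR's quasi-likelihood test called 148, or 1.04%, at an adjusted p under 0.05, of which 117 were higher and 31 lower in N-LKO livers. The hepatocyte markers (6 genes) summed to between 58192 and 86662 CPM in WT livers and to between 62468 and 76226 CPM in N-LKO livers, with none at 0 in any mouse. The 6 cholangiocyte markers summed to 23.1 to 44.8 CPM in WT and 52.1 to 131.6 CPM in N-LKO livers, with Epcam and Spp1 called higher. The 6 fibroblast and stellate cell markers summed to 156.9 to 214.9 CPM in WT and 226.6 to 320.9 CPM in N-LKO livers, with Col1a1 and Lum called higher. Of those tested, 4 of 4 cholangiocyte and 5 of 6 fibroblast and stellate cell markers had positive log2 fold changes. Krt7, not tested, was at 98.8% of its WT mean, and Lrat, a stellate cell marker, at 90.2%. Spp1 and Dcn had the highest levels of these lists, so the sums rest largely on them. The macrophage list (8 genes) spanned 105.0 to 183.2 CPM and 105.3 to 171.8 CPM, the sinusoidal endothelial list (6 genes) 177.3 to 212.5 CPM and 169.9 to 193.6 CPM, the plasma and B cell list 5.93 to 9.22 CPM and 8.01 to 12.5 CPM, and the erythroid list 58.9 to 552.9 CPM and 58.0 to 295.5 CPM. The part of these other cells in the results below was not tested. In bulk liver, fewer cells of a type and less RNA per cell cannot be told apart.

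None of the 31 genes was called by edgeR, and the smallest adjusted p was 0.0819, for Pltp. At an unadjusted p under 0.05 there were 6 of 31 (19.4%), against 12.8% of all genes tested. Of these, 5 were lower in N-LKO livers (Pltp, Apoa2, Apof, Apoa4 and Scarb1), or 16.1% against 5.90% of all genes, and 1 was higher (Sort1). The 31 genes were chosen with earlier results of these data known, and no test of these shares was made. DESeq2, run as an alternative, called 4 genes lower, which were Apoa2, Apoa4, Apof and Pltp, against 0.865% of all genes called lower by DESeq2, and limma-voom called 0. Over the 31 genes the median log2 fold change of N-LKO against WT was -0.044, with 22 negative and 9 positive, against a median of -0.0033 over all genes tested. The median absolute log2 fold change was 0.12, against 0.13 over all genes.

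**Figure D1:**
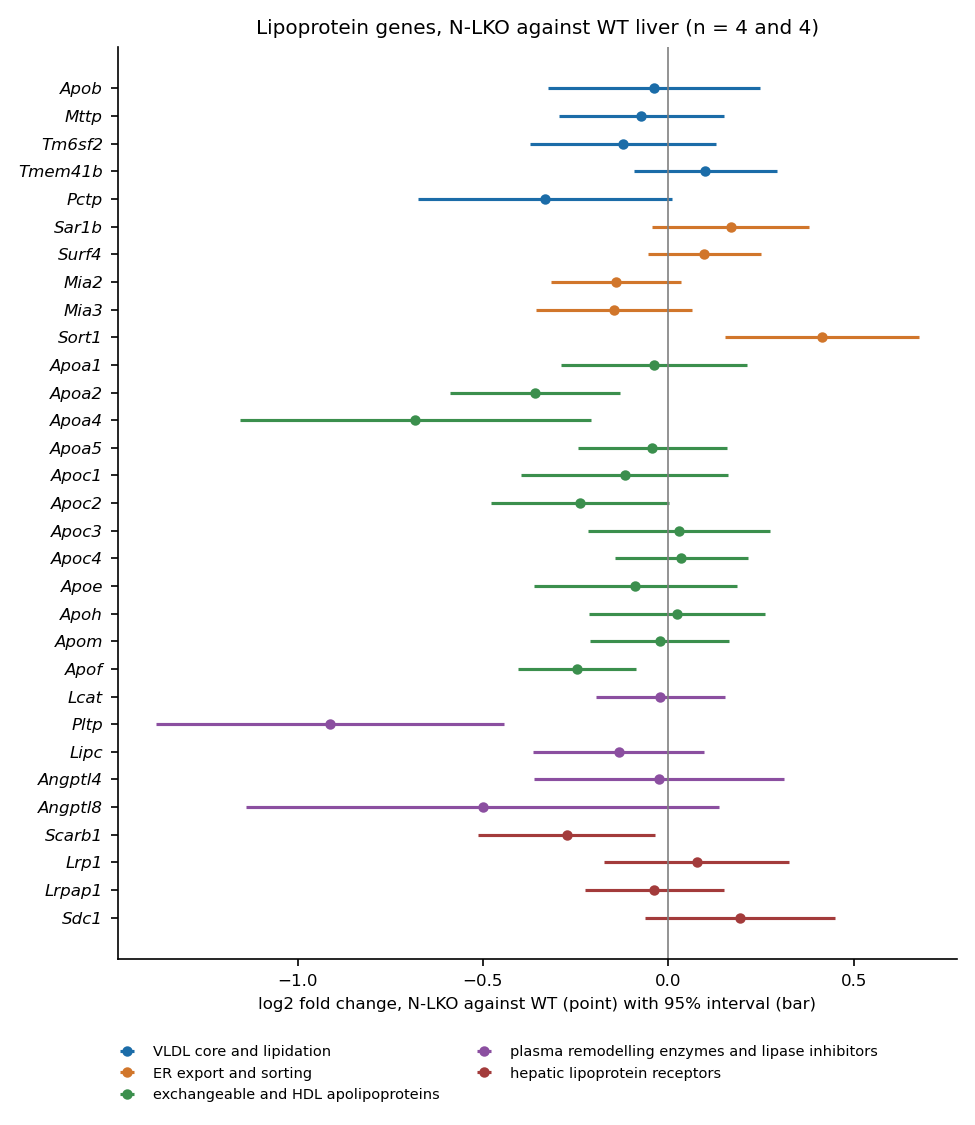
Log2 fold change of N-LKO against WT livers (horizontal axis) for the 31 genes, coloured by role, with points for the edgeR estimate and bars for its 95% interval (n = 4 and 4). The bars of 6 genes exclude 0 before adjustment for multiple tests, with Pltp at -0.91, Apoa4 at -0.68 and Apoa2 at -0.36 to the left and Sort1 at 0.41 to the right, while Apob sits at -0.038.

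The 95% interval of the fold change, not adjusted for the number of genes, lay within a 1.2-fold change in either direction for 7 of the 31 genes, within a 1.5-fold change for 25 and within a 2-fold change for 28. These counts were not made over all genes tested, so they do not set the 31 genes apart from other genes. The interval excluded 0 on the log2 scale for 6. The intervals that reached past a 2-fold change were those of Pltp, Apoa4 and Angptl8.

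Apob, on chromosome 12 from 7977648 to 8016835 (plus strand, GRCm38), encodes the structural protein of VLDL and had more counts than any other gene of the list, between 152960 and 214162 per mouse. Its level was 11328, 10744, 10758 and 11819 CPM in WT livers 1 to 4, and 9138, 12149, 10149 and 12054 CPM in N-LKO livers 1 to 4. The 2 highest and the 2 lowest of the 8 values were all N-LKO livers, so that the N-LKO group spread around the WT group. The log2 fold change was -0.038 (95% interval -0.32 to 0.25; adjusted p = 0.940, edgeR), an interval that runs from 0.799 to 1.19 times the WT level.

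The lipid donor Mttp was at 541.2, 528.4, 640.4 and 584.9 CPM in WT livers and at 541.5, 630.9, 513.4 and 496.3 CPM in N-LKO livers. The groups overlapped, and the log2 fold change was -0.073 (95% interval -0.29 to 0.15; adjusted p = 0.822, edgeR). Tm6sf2, which acts in loading lipid onto VLDL, and Tmem41b, an ER scramblase needed for VLDL lipidation, had log2 fold changes of -0.12 and 0.10, also with overlapping groups.

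Pctp, which encodes a phosphatidylcholine transfer protein, behaved differently from mouse to mouse. WT livers held 236.3, 229.6, 253.2 and 244.7 CPM, and N-LKO livers held 168.6, 267.6, 180.5 and 148.2 CPM. N-LKO livers 1, 3 and 4 were below all WT livers, and N-LKO liver 2 was above all of them. With all mice the log2 fold change was -0.33 (SE 0.155, adjusted p = 0.402, edgeR), and without N-LKO liver 2 it was -0.54 with an adjusted p of 0.0217 (edgeR), the only call in the list made by leaving out a mouse. N-LKO liver 2 was also the lowest of the 8 libraries for 8 of the 31 genes, 6 of them exchangeable apolipoproteins.

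**Figure D2:**
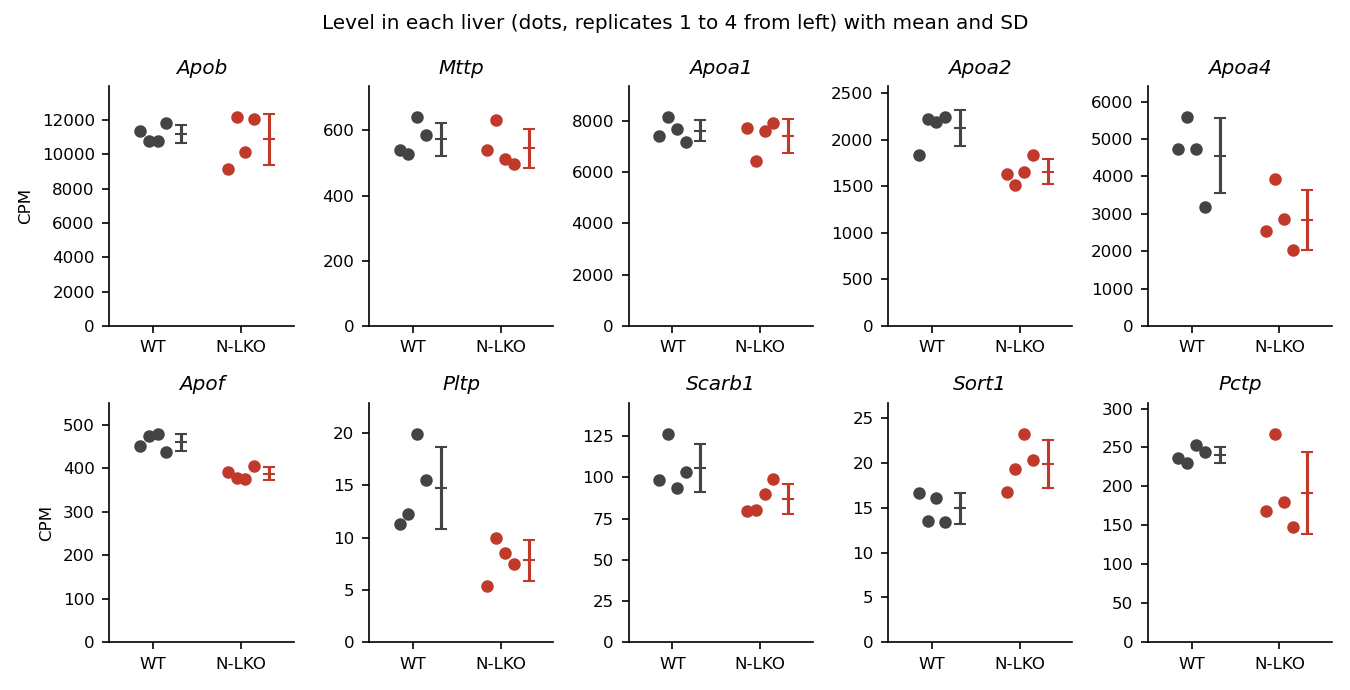
CPM (vertical axes, each from 0) of 10 genes in each WT (grey) and N-LKO (red) liver, with the group mean and SD (n = 4) at the right of each group. Apoa2, Apof and Pltp show no overlap downward and Sort1 none upward, whereas Pctp has 1 N-LKO liver at 267.6 CPM above all WT livers and 3 below them.

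Among the genes for ER export and sorting, Sort1 was the one with a difference at an unadjusted p under 0.05. Sort1 encodes sortilin, a sorting receptor that binds APOB in the secretory pathway, and lies on chromosome 3 from 108284082 to 108361511 (plus strand). Its level was low, at 16.6, 13.5, 16.1 and 13.4 CPM in WT livers and 16.7, 19.3, 23.2 and 20.3 CPM in N-LKO livers. Every N-LKO liver was above every WT liver, although N-LKO liver 1 exceeded the highest WT liver by little. The log2 fold change was 0.41 (SE 0.118, adjusted p = 0.158, edgeR; exact two-sided permutation test, p = 0.0286, the smallest that 4 against 4 mice can give). Leaving out each mouse in turn gave 0.33 to 0.49, with an unadjusted p under 0.05 in 8 of 8 fits. It was the 1 gene of 31 (3.23%) with N-LKO livers all higher, against 4.20% of all genes tested.

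The other export genes stayed close to WT levels. Sar1b, the COPII GTPase of bulky lipoprotein carriers, had a log2 fold change of 0.17 (adjusted p = 0.510, edgeR), and Surf4, the cargo receptor for lipoproteins, one of 0.097 (adjusted p = 0.608). Mia2 and Mia3, which encode the cTAGE5 and TANGO1 type scaffolds of large COPII carriers, had values of -0.14 and -0.15. Mia2 was at 408.4, 482.7, 417.0 and 427.2 CPM in WT livers and 391.5, 406.8, 371.6 and 403.3 CPM in N-LKO livers, so the groups did not overlap, but its adjusted p was 0.508 (edgeR). Its highest N-LKO liver and its lowest WT liver differed by less than the spread within either group. With Apoa2, Apof and Pltp it made 4 of 31 genes (12.9%) with N-LKO livers all lower, against 3.32% of all genes tested.

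The exchangeable and HDL apolipoproteins (12 genes) were the most abundant group. Per kb of exon, the scale on which genes can be compared, WT means were 6160 CPM for Apoa1, 4012 for Apoe, 3955 for Apoa2, 2508 for Apoa4, 1778 for Apoc1 and 981 for Apoh, followed by Apob at 801. The lowest of the 31 were Angptl8 at 2.27 and Sort1 at 1.97. The order of the 7 most abundant was the same in N-LKO livers except at Apoa4 and Apoc1, where the N-LKO means were 1563 and 1639.

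**Figure D3:**
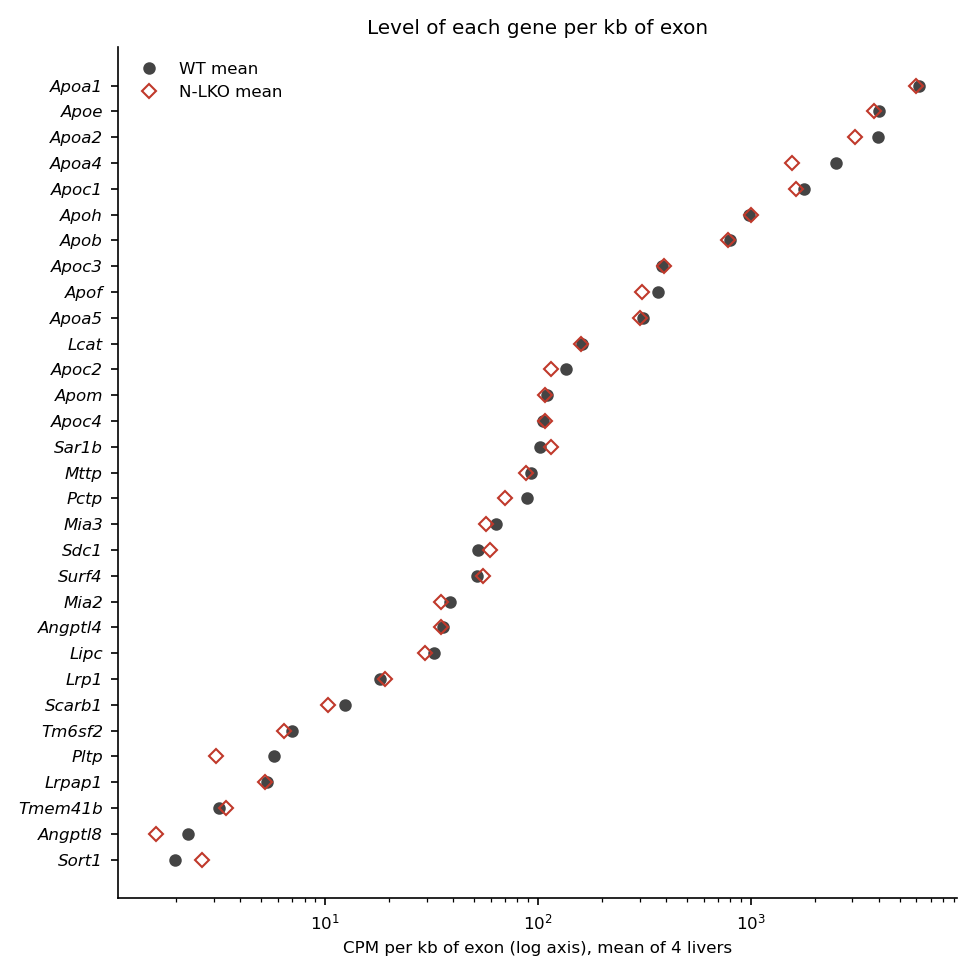
Mean CPM per kb of exon (horizontal log axis, n = 4 livers a point) of the 31 genes in WT (filled circles) and N-LKO livers (open diamonds), ordered by the WT mean. The levels run from 1.97 for Sort1 to 6160 for Apoa1 in WT livers, and the largest gaps between the symbols are at Pltp, Apoa4 and Angptl8.

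The 3 genes with the largest log2 differences among the 5 lower ones were Pltp, Apoa4 and Apoa2, and their promoters are shown so that their sequence can be set beside their levels. Each window covers 250 bases before to 50 bases after the annotated start and was taken from RefSeq on GRCm38.p6, written 5' to 3' on the strand of the gene. The windows are chr1:171224804-171225103 (plus) for Apoa2, chr9:46240594-46240893 (plus) for Apoa4 and chr2:164857659-164857958 (minus) for Pltp. The RefSeq start lay 0 bases from the gene start of the count table for Apoa2. It lay 148 bases inside the gene for Apoa4 and 3 for Pltp. Most of the Apoa4 window thus lies within the annotated gene and not before it. Capitals mark a match to 1 of 3 motifs searched on both strands, which were AAGTCCA (part of a site for HNF4, a hepatocyte transcription factor), AGGTCA (a hexamer bound by nuclear receptors) and CACGTG (an E-box).
Apoa2 promoter: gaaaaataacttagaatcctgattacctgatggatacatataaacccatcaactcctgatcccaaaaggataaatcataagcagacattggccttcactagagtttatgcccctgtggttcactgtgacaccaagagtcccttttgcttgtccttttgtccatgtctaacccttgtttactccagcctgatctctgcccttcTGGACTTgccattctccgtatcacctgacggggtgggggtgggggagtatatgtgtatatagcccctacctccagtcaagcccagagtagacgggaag
Apoa4 promoter: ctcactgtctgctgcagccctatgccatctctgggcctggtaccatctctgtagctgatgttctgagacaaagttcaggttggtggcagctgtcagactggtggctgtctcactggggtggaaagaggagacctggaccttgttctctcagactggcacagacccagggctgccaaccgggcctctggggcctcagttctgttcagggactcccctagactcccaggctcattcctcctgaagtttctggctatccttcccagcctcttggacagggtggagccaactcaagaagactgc
Pltp promoter: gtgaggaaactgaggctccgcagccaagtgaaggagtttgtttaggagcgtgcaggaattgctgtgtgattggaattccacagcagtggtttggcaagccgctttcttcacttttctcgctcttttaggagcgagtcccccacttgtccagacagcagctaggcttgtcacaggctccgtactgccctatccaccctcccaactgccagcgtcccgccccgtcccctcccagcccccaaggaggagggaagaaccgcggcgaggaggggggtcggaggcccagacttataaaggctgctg
The Apoa2 window held 1 match, to the HNF4 letters, beginning 48 bases before the start, and the other windows held none. Of the 31 genes, 24 had a RefSeq window. The HNF4 letters were in 2 of them (Apoa2 and Lipc) and in 4.2% of 32851 promoter windows, the hexamer in 4 (Apoc2, Apoc4, Apoh and Pctp) and in 16.3%, and the E-box in 1 (Apoa5) and in 7.2%. The start of the Apoh window lay 51943 bases from the gene start of the count table. The Pctp match began 13 bases after the start of that gene.

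Apoa2 encodes the second most abundant protein of HDL and lies on chromosome 1 from 171225054 to 171226379 (plus strand). Its level was 1834, 2226, 2195 and 2240 CPM in WT livers and 1631, 1511, 1649 and 1832 CPM in N-LKO livers. The groups did not overlap, but WT liver 1 and N-LKO liver 4 were almost level. The N-LKO mean was 78.0% of the WT mean, with a log2 fold change of -0.36 (SE 0.103, adjusted p = 0.162, edgeR; exact permutation test, p = 0.0286). Leaving out each mouse in turn gave -0.42 to -0.31, with adjusted p from 0.0869 to 0.346 (edgeR), and DESeq2 gave an adjusted p of 0.0133.

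Apoa4, an apolipoprotein of VLDL, chylomicrons and HDL that in the mouse is made in liver as well as intestine, lies on chromosome 9 from 46240696 to 46243459 (plus strand). WT livers held 4731, 5580, 4725 and 3171 CPM, and N-LKO livers held 2526, 3922, 2857 and 2039 CPM. WT liver 4 fell within the N-LKO range and N-LKO liver 2 within the WT range, so the groups overlapped. The N-LKO mean was 62.3% of the WT mean, with a log2 fold change of -0.68 (SE 0.214, adjusted p = 0.196, edgeR; exact permutation test, p = 0.0571). DESeq2 gave an adjusted p of 0.0343. Without N-LKO liver 2 the log2 fold change was -0.88, the farthest from 0 of the 8 fits that left out a mouse.

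Another transcript overlaps Apoa4 on the opposite strand and shares 34.9% of its exon bases. This transcript, Gm47528, was at 17.6 to 47.4 CPM, which was between 0.774% and 0.920% of the Apoa4 level in each mouse, and its log2 fold change was -0.61 (adjusted p = 0.193, edgeR). Whether counting used strand is not stated, so reads of the pair cannot be told apart. Within the cluster on chromosome 9, Apoa1, Apoc3 and Apoa5 lie beside Apoa4, with 2467, 5060 and 25174 bases between successive genes. Apoa1, the main protein of HDL, was at 7428, 8140, 7702 and 7185 CPM in WT livers and 7726, 6419, 7596 and 7909 CPM in N-LKO livers. The Apoa1 groups overlapped, with a log2 fold change of -0.039 (95% interval -0.29 to 0.21). Apoa5, an activator of lipoprotein lipase, and Apoc3, an inhibitor of it, had log2 fold changes of -0.044 and 0.028. No test of Apoa4 against its neighbours was made.

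Apof encodes a minor apolipoprotein, also known as lipid transfer inhibitor protein, and lies on chromosome 10 from 128267997 to 128270153 (plus strand). It was at 450.3, 473.8, 479.3 and 437.5 CPM in WT livers and 391.3, 378.0, 375.0 and 406.4 CPM in N-LKO livers. The 2 groups were tight and did not overlap. The log2 fold change was -0.25 (SE 0.0721, adjusted p = 0.166, edgeR; exact permutation test, p = 0.0286), and it lay between -0.27 and -0.23 with each mouse left out. DESeq2 gave an adjusted p of 0.0105.

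Of the remaining exchangeable apolipoproteins, Apoc2, the cofactor of lipoprotein lipase, was at 102.4, 133.4, 106.8 and 97.3 CPM in WT livers and 94.2, 100.8, 97.1 and 80.9 CPM in N-LKO livers. For Apoc2 the log2 fold change was -0.24 (unadjusted p = 0.0518, adjusted p = 0.394, edgeR), and it shares 79.5% of its exon bases with the readthrough gene Gm44805 on the same strand, so its level is uncertain. Apoe, the ligand for remnant uptake, had a log2 fold change of -0.089, Apoc1, which inhibits lipoprotein lipase and uptake, one of -0.12, and Apoc4, a minor apolipoprotein of VLDL, one of 0.035. These 3 genes and Apoc2 form the cluster on chromosome 7, with 142, 8002 and 3449 bases between successive genes. Apom, which carries sphingosine-1-phosphate on HDL, and Apoh, which binds phospholipid, had log2 fold changes of -0.023 and 0.024. Groups overlapped for all of these.

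Summed over the 12 exchangeable apolipoproteins, WT livers held 26172, 30220, 28605 and 26500 CPM, and N-LKO livers held 25475, 22873, 25223 and 25627 CPM. Every N-LKO sum was below every WT sum, a description for which no test was made. The difference between the means, N-LKO minus WT, was -3075 CPM, of which Apoa4 made 55.8% and Apoa2 15.2%. Without Apoa4 the sums ran from 21441 to 24640 CPM in WT and from 18951 to 23588 CPM in N-LKO livers and overlapped. The sum over VLDL core and lipidation genes ran from 11536 to 12680 CPM and from 9882 to 13080 CPM. The sum over all 31 genes ran from 40338 to 43891 CPM in WT and from 37372 to 40571 CPM in N-LKO livers and overlapped. As a share of counts before TMM scaling, the 31 genes took 4.10% to 4.33% in WT livers and 3.55% to 3.91% in N-LKO livers, without overlap.

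**Figure D4:**
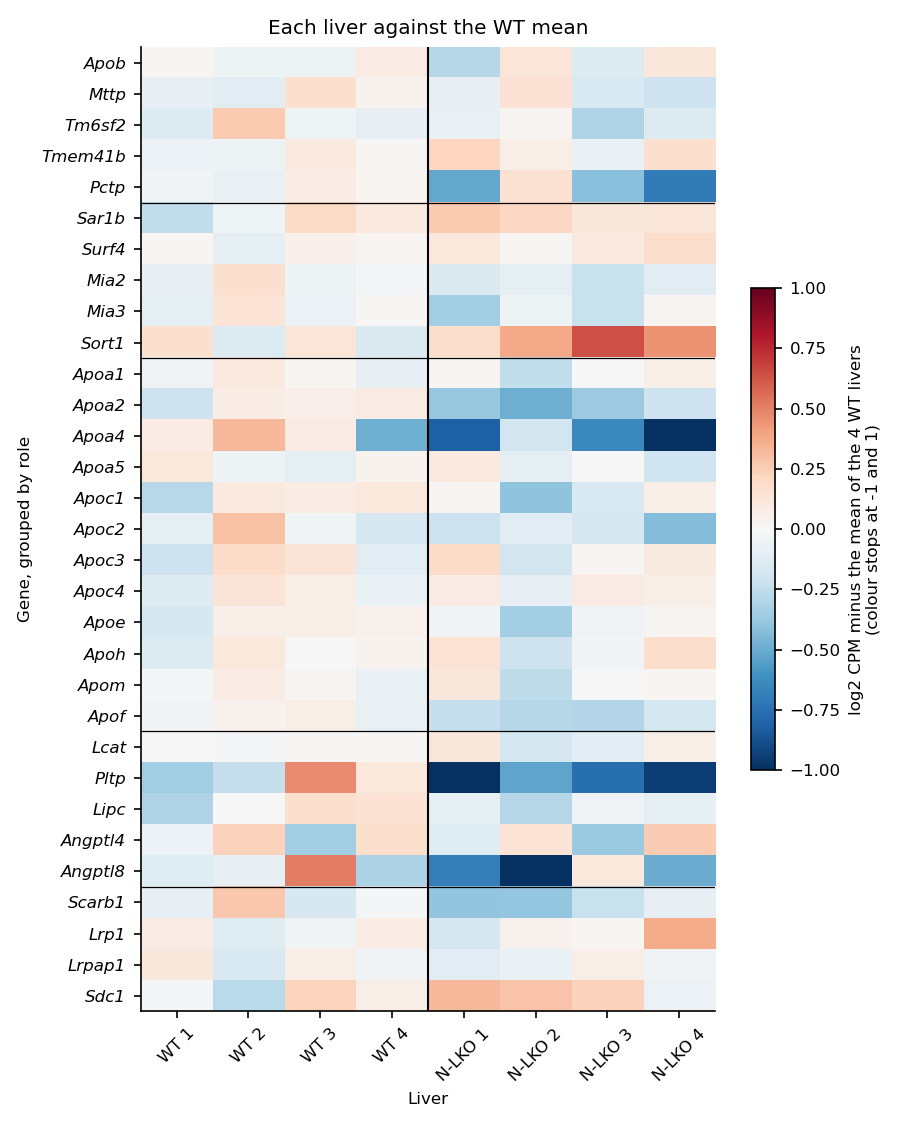
Log2 CPM of each of the 31 genes (rows, grouped by role with lines between groups) in each of the 8 livers (columns), minus the mean log2 CPM of the 4 WT livers, with blue for lower and red for higher. Pltp, Apoa2 and Apof are blue in all N-LKO livers and Sort1 red, while N-LKO liver 2 is blue at all 12 exchangeable apolipoproteins and differs from the other N-LKO livers at Pctp.

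Transcript length moved with the values of single libraries. Across the 31 genes, Spearman's rho between exon length and the deviation of a library from the mean was 0.504 for N-LKO liver 2, -0.502 for N-LKO liver 1 and 0.441 for WT liver 1, against 0.125, -0.0678 and 0.122 across 13925 tested genes with a known length. These are correlations across genes, which are not independent replicates, and most short genes here are exchangeable apolipoproteins. The part of transcript length in the differences was not tested.

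In plasma, Pltp encodes the phospholipid transfer protein, which moves phospholipid from VLDL remnants to HDL. The gene lies on chromosome 2 from 164839518 to 164857711 (minus strand). It had the largest log2 difference of the list. WT livers held 11.3, 12.3, 19.9 and 15.5 CPM, and N-LKO livers held 5.39, 9.97, 8.49 and 7.47 CPM. All N-LKO livers were below all WT livers. The SD was 3.89 CPM on a mean of 14.7 CPM in WT and 1.92 CPM on a mean of 7.83 CPM in N-LKO livers. The N-LKO mean was 53.2% of the WT mean, with a log2 fold change of -0.91 (SE 0.213, 95% interval -1.38 to -0.44, adjusted p = 0.0819, edgeR; exact permutation test, p = 0.0286).

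Leaving out each mouse in turn gave log2 fold changes for Pltp of -1.05 to -0.74, with adjusted p from 0.0575 to 0.193 (edgeR). DESeq2 called Pltp with an adjusted p of 0.00343. Pltp shares 19.3% of its exon bases with Ctsa, a lysosomal protease gene on the opposite strand, for which the log2 fold change was -0.11 (adjusted p = 0.528, edgeR). Pltp is also expressed by macrophages, and the macrophage markers, none of which had an unadjusted p under 0.05, had a median log2 fold change of -0.13 with 7 of 8 negative. The summed macrophage markers overlapped between WT and N-LKO livers, and the part of macrophages in the Pltp difference was not tested.

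The other plasma enzymes and lipase inhibitors overlapped between the groups. Lcat, which esterifies cholesterol on HDL, was at 213.8 to 219.4 CPM in WT and 192.7 to 234.3 CPM in N-LKO livers (log2 fold change -0.022). Lipc, the hepatic lipase, had one of -0.13 and Angptl4, an inhibitor of lipoprotein lipase, one of -0.024. Angptl8, an insulin-responsive protein that takes part in the inhibition of lipoprotein lipase, had one of -0.50 (95% interval -1.14 to 0.14), on 0.924 to 2.73 CPM. That interval holds both 0 and differences past 2-fold, so a difference of that size in Angptl8 could be neither shown nor set aside with 4 mice per group.

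Among the hepatic receptors, Scarb1, the HDL receptor SR-BI, was at 98.7, 126.4, 93.5 and 103.1 CPM in WT livers and 79.9, 80.2, 89.8 and 99.0 CPM in N-LKO livers. N-LKO liver 4 lay within the WT range. The log2 fold change was -0.27 (SE 0.108, unadjusted p = 0.0278, adjusted p = 0.315, edgeR; exact permutation test, p = 0.0857). It was -0.18 without WT liver 2, and the unadjusted p was under 0.05 in 5 of 8 fits that left out a mouse. Lrp1, a large receptor for remnants, its chaperone Lrpap1 and Sdc1, the proteoglycan that binds remnants, had log2 fold changes of 0.077, -0.037 and 0.19, all with overlapping groups.

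The proteins of the list differ in how many N-glycosylation sequons they hold, that is asparagine, any residue but proline, then serine or threonine. In proteins translated from the longest GENCODE M21 coding sequence, 12 of 31 had none, among them Apoa1, Apoa2, Apoa4, Apoa5, Apoc1, Apoc2, Apoc3 and Apoe. Apob had 22 and Lrp1 had 52, Scarb1 had 11, Pltp 7 and Sort1 6. Of the 6 genes with an unadjusted p under 0.05, Apoa2 and Apoa4 had no sequon, Apof had 1 and the others at least 6. A sequon is a sequence match and does not show that the site carries a sugar, and mRNA levels do not show protein glycosylation or secretion.

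Beyond the 31 genes, 72 further genes of the pathway were listed in 5 groups, of which 70 were in the table and 69 were tested. None was called by edgeR (smallest adjusted p = 0.0632), 15 (21.7%) had an unadjusted p under 0.05, against 12.8% of all genes tested, with 9 higher and 6 lower in N-LKO livers. DESeq2 called 2 of them (2.90%), Lpl and Nr1d1, close to the 2.61% it called over all genes. In the group for VLDL lipid supply (14 genes), Cideb, a lipid droplet protein that promotes VLDL lipidation, had the smallest p, with a log2 fold change of -0.30 (adjusted p = 0.147, edgeR). In the group for the COPII coat (16 genes) it was Sec23b, an inner coat subunit, at 0.26 (adjusted p = 0.343), and the median of the group was 0.022. In the group of other apolipoproteins (11 tested) it was Apobr, a receptor for APOB48, at -0.94 (adjusted p = 0.182) with group means of 1.42 and 0.738 CPM.

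The group for lipoprotein clearance, HDL assembly and lipases (15 tested) had 13 positive and 2 negative log2 fold changes with a median of 0.19, against 7004 positive, 7210 negative and a median of -0.0033 over all genes tested. Of the 15, 7 (46.7%) had an unadjusted p under 0.05, against 12.8% of all genes. Of these 7, 6 were higher, or 40.0% of the group against 6.87% of all genes, and 1 was lower. All 5 pathway lists were chosen with earlier results of these data known, and no test of these shares was made. Lpl, the lipoprotein lipase, had the smallest p, at 28.2 ± 4.79 CPM in WT and 42.6 ± 10.2 CPM in N-LKO mice (SD, n = 4 each), with a log2 fold change of 0.60 (adjusted p = 0.152, edgeR). Lpl is made mainly by cells other than hepatocytes. The fibroblast and cholangiocyte marker sums above were higher in the same N-LKO livers, whereas the macrophage and sinusoidal endothelial sums overlapped between the groups. The part of any of these cells in the Lpl difference was not tested. In the group of regulators (13 genes) the smallest p was for Nr1d1, a repressor of the circadian clock, at 27.4 ± 6.36 CPM in WT and 12.2 ± 5.05 CPM in N-LKO mice (SD, n = 4 each), with a log2 fold change of -1.18 (adjusted p = 0.0632, edgeR). Nr1d1 was called without the filter on low counts, with the library number as a block, and without N-LKO liver 4. Hnf4a, which acts on many apolipoprotein genes, was at 584. ± 67.7 CPM in WT and 608. ± 89.2 CPM in N-LKO mice (SD, n = 4 each), with a log2 fold change of 0.057 (adjusted p = 0.895, edgeR).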

How the data were processed

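Liver RNA of CD-fed mice (4 WT, 4 N-LKO) was sequenced after removal of rRNA, from libraries for which the labels and methods name a small RNA kit. The values the authors deposited are expected counts (estimates of reads per gene). Of the 19642 genes, 52.2% had a value that was not whole in at least 1 mouse. The methods name TopHat2 and cuffdiff, whereas the submitters' processing notes name STAR, Partek and mm9, so the program that made the counts is uncertain. The deposited coordinates were those of GRCm38. Of all genes, 97.5% matched GENCODE M21 by symbol, chromosome, strand and overlap, and all 31 members did. The deposited end was taken as 1 base past the gene. Counting by strand is not stated.

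Counts were rounded, filtered by edgeR's filterByExpr (minimum count 10, minimum total 15) to 14214 genes and scaled by TMM. The test was edgeR's quasi-likelihood F test (version 4.0.16, R 4.3.3) on genotype alone, with calls at a Benjamini-Hochberg adjusted p under 0.05 over all genes tested. The SE was taken from the log2 fold change and the F statistic (its size over the root of F), and 95% intervals used the quasi-likelihood degrees of freedom. Single genes were also compared on log2 CPM (prior count 2) by exact two-sided permutation of mice, for which 0.0286 is the smallest p. Any gene whose groups do not overlap has that p, so it adds nothing to the lack of overlap. It was not adjusted for the number of genes. Between libraries of 1 group (12 pairs), chi-square per degree of freedom was 11.9 to 48.1, so no library was counted as a repeat of another. The scripts were tested on simulated counts. Alternatives were RLE scaling, library totals, an unfiltered table, a minimum of 10 counts per mouse, DESeq2 1.42.0, limma-voom (limma 3.58.1), the replicate number or library number as a block, each mouse left out, and a prior count of 0.5 in the permutation test.

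The members, the pathway and marker lists and the naming rule were chosen with earlier results of these data known. All members were named, as were Nus1, and in each pathway list any called gene or else the gene with the smallest p. Hnf4a, the marker genes called, and Krt7, Lrat and Dcn were named outside that rule, after their values were seen. Ctsa, Gm47528 and Gm44805, which share exon bases with a member, were also named outside it. Apod, Apol6 and Mzb1, which were listed, were not analysed here. Depth was 14688404 to 18585412 counts per mouse.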

Additional observations from a re-analysis of the deposited data

Results flagged for a closer look

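In 62 groups of 4 values (31 genes in each genotype), 4 held a value that stood apart from its group by Dixon's criterion at 95%, where about 3.1 would be flagged by chance. In WT liver 1, Apoa2 was at 1830 CPM against 2190 to 2240 CPM in the other WT livers, Apoc1 at 1090 CPM against 1380 to 1420 CPM, and Apoe at 7590 CPM against 8830 to 8980 CPM. In N-LKO liver 2, Apoc4 was at 252 CPM against 278 to 282 CPM in the other N-LKO livers. Without WT liver 1, the log2 fold change of Apoa2 was -0.42, that of Apoc1 -0.20 and that of Apoe -0.14, and none was called by edgeR.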

How the results depend on the processing

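Of the 31 genes, 20 kept their direction in all 16 alternative fits and 11 did not. With library totals in place of TMM, which shifted the median of all genes by -0.034, the log2 fold changes of Apoc3 and Apoh were -0.0070 and -0.013. Over the fits that left out 1 mouse, log2 fold changes ran from -0.092 to 0.036 for Apob, from -0.071 to 0.028 for Apoa1, from -0.095 to 0.0059 for Apoa5, from -0.037 to 0.098 for Apoc3, from -0.0060 to 0.080 for Apoc4, from -0.028 to 0.097 for Apoh, from -0.072 to 0.049 for Apom, from -0.069 to 0.029 for Lcat, from -0.13 to 0.079 for Angptl4, from -0.036 to 0.15 for Lrp1 and from -0.085 to 0.0023 for Lrpap1. The number of the 31 genes called was 0 by edgeR, 4 by DESeq2, and 0 to 1 with each mouse left out, the 1 being Pctp without N-LKO liver 2. The number of further pathway genes called was 0, and it was 1 with no filter, 2 by DESeq2, 1 with the library number as a block, and 0 to 1 with each mouse left out. Over all genes, 148 were called, against 371 by DESeq2, which included all 148, 98 with at least 10 counts in every mouse, and 71 to 173 with each mouse left out. It was 83, 91 and 71 without WT liver 2, 3 and 4 and 76 without N-LKO liver 3. Some of these fits had fewer mice or genes and DESeq2 is another test, and the cause of the changes was not tested.

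Over all genes tested, same-numbered mice showed little correlation, for which no test was made. The correlation of their deviations from the group means was 0.0625, -0.0853, 0.0396 and 0.0433 by the title's number and -0.0092, 0.166, 0.0648 and 0.0767 by the number in the library name. Under the replicate block edgeR called 131 genes, 0 of them among the 31. With that block the unadjusted p of Apoa4 fell from 0.00892 to 0.000533 (adjusted p = 0.0562, edgeR). That of Pltp fell from 0.00134 to 0.000534 (edgeR), and those of Apoa2, Apof, Sort1 and Scarb1 rose. Angptl8 rested on 14 to 43 counts per mouse, the fewest of the 31 genes, and how much of its error came from counting was not tested.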
